A study of Mus musculus with 4 samples.

Results

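The miRNA cluster within the Sfmbt2 gene on mouse chromosome 2 was measured by small RNA sequencing after RNA immunoprecipitation for Argonaute2 (AGO2) from the olfactory bulb. Its members were all names of the miRNA count table with a listed position on chromosome 2 that starts between 10.37 and 10.6 Mb (mm10). This rule took 70 of the 1900 names in the table: 25 of the miR-466 family, 29 of the miR-669 family, 10 of the miR-467 family and 6 of the miR-297 family. The Control group (n = 2) came from C57BL/6 mice given a sham injection and no vector. The GFP-AGO2 group (n = 2) came from C57BL/6 mice given LV.PGK.GFP-AGO2, a viral vector that by its name carries a fusion of green fluorescent protein (GFP) and AGO2 driven by a PGK promoter. In both groups the bulb was taken 8 weeks after injection. The labels give neither the age of the mice nor the antibody nor the cells that carried the vector. It is therefore unknown whether the Control libraries hold endogenous AGO2 cargo or RNA that came down unspecifically. The series describes its material as newborn neurons of the bulb, while the sample labels name dissected bulb tissue. The labels do not state whether each library is a separate mouse, so the p-values reflect only library-to-library spread, which may be technical.

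Mature miRNAs are short RNAs cut from the 5p or the 3p arm of a hairpin and loaded into an Argonaute protein, which they guide to target RNAs. Sfmbt2 encodes a Polycomb group protein and is imprinted, being expressed from the paternal copy in early embryonic and extraembryonic tissue. The block of related hairpins in its intron is found in mouse and rat, arose by tandem duplication, and is known for its expression in placenta and embryonic stem cells. Because many of its hairpins are near copies of each other, reads from them are hard to place at 1 position.

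Sequencing depth differed between the groups, with 673916 to 1006861 miRNA counts per Control library and 1858354 to 2809758 per GFP-AGO2 library. The neuron list of 8 miRNAs, which includes miR-124-3p, had counts for every name. It made up 1.34% to 1.55% of each Control library and 1.81% to 2.00% of each GFP-AGO2 library. Its members did not move together. MiR-138-5p was called lower in GFP-AGO2 (log2 fold change -0.82, adjusted p = 0.0101 by edgeR). MiR-124-3p, miR-132-3p, miR-128-3p, miR-129-5p and miR-137-3p were not called, at -0.15, -0.17, 0.18, 0.15 and 0.60. The list's other members, miR-9-5p and miR-9-3p, together took a larger part of each GFP-AGO2 library than of each Control library. Their separate fold changes are not given here. The list taken as epithelial (8 names from the miR-183 cluster and the miR-200 family) took 23.0% to 23.4% in Control and 2.56% to 4.999% in GFP-AGO2. Whether the counts of this epithelial list came from epithelial cells was not tested. Markers of vessels, blood and immune cells took 0.349% to 0.482% and 0.0348% to 0.167%, with miR-126a-3p, miR-126a-5p and miR-142-3p, 3 of the 11 names, listed at 0. Of the oligodendrocyte list, none of the 3 names had a count. Outside the cluster, 75 names overlap another name, and whether such an overlap lay behind the zeros of these lists was not tested. The zeros thus do not show that a cell type was missing. Fewer cells of a type, less RNA per cell and a different content of the immunoprecipitate cannot be told apart here as the source of a level. The part of these lists in the cluster's values was not tested.

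The cluster had 137 positions in the window, all on the plus strand, from 10466677 to 10518240, a span of 51.6 kb. Sfmbt2 itself lies at 10370510 to 10595253 on the same strand in GENCODE M21. All 137 positions lay in intron 11 of the 22 introns of its principal transcript, Sfmbt2-205 (10461473 to 10523944). None touched an exon of any gene other than a miRNA gene, and each lay inside an annotated miRNA hairpin gene. Of the 70 names, 53 had 1 position and 17 had several, so that the 17 held 84 of the 137 positions. No member overlapped another name, and miR-297a-5p alone had a position outside the window, on chromosome 7. The names with the most copies were miR-669a-5p with 12 positions, miR-669a-3p with 11, miR-467a-5p and miR-467a-3p with 10 each, and miR-466b-5p and miR-466b-3p with 8 each. Their copies followed each other at a median distance of 2457 to 2468 bases, between 10474228 and 10510243. Outside the cluster no name of the table had more than 3 positions.

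Most of the cluster was not detected. Of the 70 members, 15 had a count in any library and 55 were at 0 in all 4, whereas 1091 of the 1830 names outside the cluster had a count. In percent, that was 21.4% of the members against 59.6% of the other names. For reads that the authors' counting assigned to a name, a total of 0 over the 6348889 counts of the 4 libraries allows a level of up to 0.473 CPM (counts per 1000000 miRNA counts), taking 3 counts as the limit and covering counting error only. For names whose reads could match several places, this limits assigned reads and not the level of the miRNA. The 10 names of the same 4 families that lie elsewhere in the genome, such as miR-466i-3p, miR-467f and miR-669n, also had no count. In the imprinted Dlk1-Dio3 cluster on chromosome 12, by contrast, 95 of 116 names had a count.

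Detection was lower than elsewhere both for members with 1 position and for members with several. Among members with 1 position 12 of 53 had a count, among those with 2 positions 3 of 8, among those with 3 positions none of 2 and among those with 4 or more none of 7. Names outside the cluster with 1 position had a count in 1046 of 1770 cases, and those with several positions in 45 of 60. These 60 names have 2 or 3 positions, and the 7 members with 4 or more positions have no counterpart outside the cluster. The part of multiple positions in the members' zeros was not tested. No label or header states how many positions a read could match before the aligner dropped it. The zeros of these names thus do not show that the miRNA was missing. For the 41 members with 1 position and no count, whether reads were placed at a near copy was not tested.

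**Figure D1:**
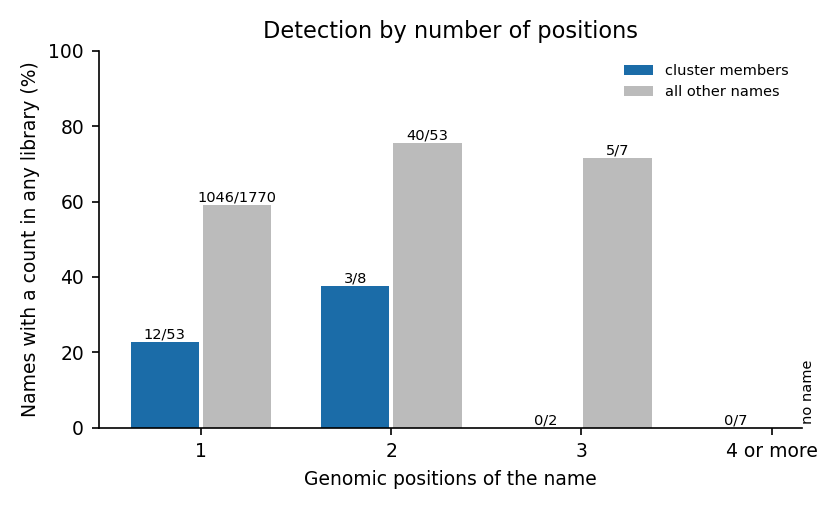
Percent of names with a count in any of the 4 libraries (y axis) by the number of genomic positions of the name (x axis), for cluster members (blue) and all other names (grey); the labels give names with a count over all names. Members lie below the other names in each class that both have, with 12 of 53 against 1046 of 1770 at 1 position, and no name outside the cluster has 4 or more positions.

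Along the intron, counted names lay before, within and after the repeated stretch that holds the many-copy names. Before that stretch 5 of 20 names had a count, namely miR-669f-3p, miR-669e-5p, miR-669d-5p, miR-466o-3p and miR-467c-5p. After it 4 of 20 had one, namely miR-297b-5p, miR-466d-3p, miR-669m-5p and miR-669h-5p. Within it 6 of 31 had one, of which miR-467e-5p, miR-467d-5p, miR-466a-3p, miR-297c-5p and miR-669c-5p lay near its far end. The longest stretch without a counted name ran for 21.8 kb, from miR-466c-5p at 113.5 kb after the gene start to miR-467e-5p at 135.2 kb. It holds 45 positions of 9 names. All 45 belong to names with several positions, and 40 of them to names with 4 or more. No name with a single position lies there, so nothing in the stretch could be measured at 1 place.

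**Figure D2:**
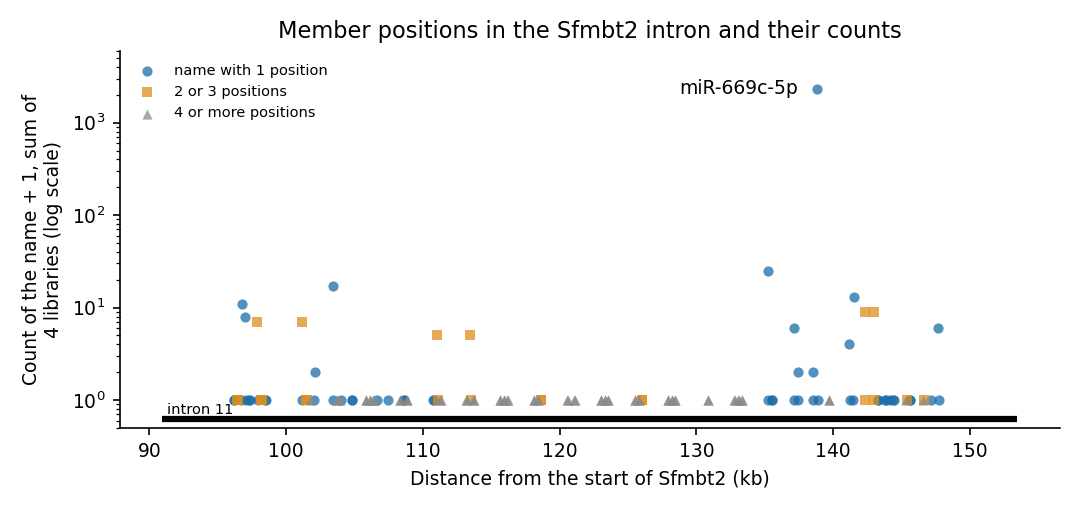
Each point is 1 of the 137 positions, placed by its distance from the start of Sfmbt2 in kb (x axis), with the count of its name summed over 4 libraries plus 1 (y axis, log scale); a name with several positions is drawn at each of them with its whole count, colours and shapes give the number of positions, and the bar marks intron 11. MiR-669c-5p, at 2288 counts, stands above all others, and no counted name lies between 113.5 and 135.2 kb.

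A single miRNA, miR-669c-5p, held nearly all counts of the cluster. It lies at 10509319 to 10509340 on chromosome 2, 138.8 kb after the gene start, has 1 position, overlaps no other name and is the 5p arm of the hairpin Mir669c. Control replicate 1 had 316 counts of it and Control replicate 3 had 232, while GFP-AGO2 replicate 1 had 1078 and GFP-AGO2 replicate 3 had 662. These made up 94.3% and 93.9% of the cluster's counts in Control and 96.1% and 96.4% in GFP-AGO2, with exact 95% intervals that together span 90.2% to 97.6%. The next highest member, miR-467e-5p, had 24 counts in all 4 libraries together against 2288 for miR-669c-5p. In order of count among all names of a library, miR-669c-5p ranked 129 and 119 in Control and 126 and 134 in GFP-AGO2. It thus lay above 83.2% to 85.1% of the names detected in each library. Its hairpin partner miR-669c-3p, 19 bases downstream, had no count. With 3 counts as the limit for the 3p arm over all libraries and the 5p count taken as exact, the 5p arm was at least 763-fold higher in assigned reads. Whether reads of the 3p arm were placed at a near copy was not tested. The nearest neighbours of miR-669c-5p, miR-297c-3p and miR-297c-5p, 233 and 272 bases upstream, had 0 counts and 1 count.

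Scaled to the library total alone, miR-669c-5p stood at 314 and 344 CPM in Control and at 384 and 356 CPM in GFP-AGO2. On this scale both GFP-AGO2 libraries lay above both Control libraries. The scale depends on the rest of each library, and the epithelial list took a far larger part of the Control libraries. Scaling by the trimmed mean of M values (TMM), which sets libraries level on the bulk of the miRNAs, gave 328 and 383 CPM in Control and 363 and 325 CPM in GFP-AGO2. On that scale the groups overlapped, with the highest and the next lowest value both in Control. Of all 457 miRNAs tested, 72.0% had groups that did not overlap in TMM-scaled CPM.

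**Figure D3:**
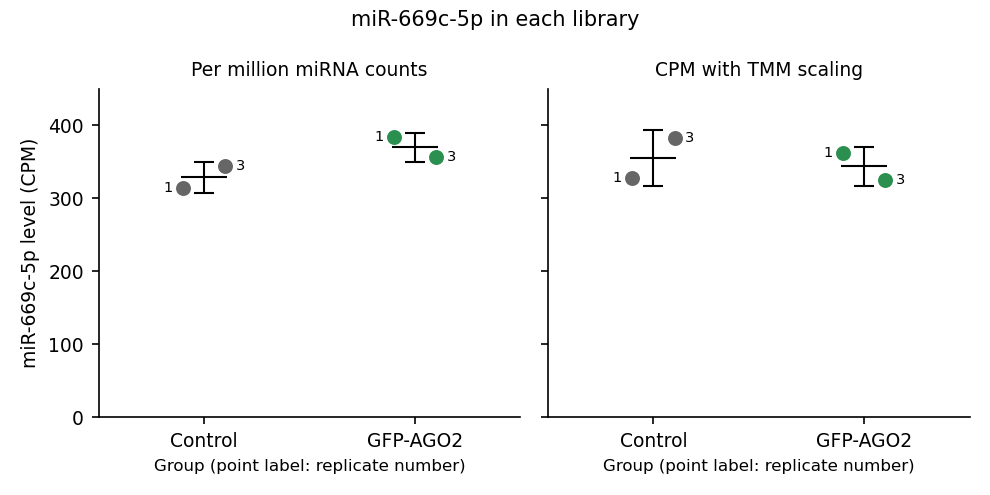
Level of miR-669c-5p in each library as CPM of the library total (left) and as CPM with TMM scaling (right), with Control in grey and GFP-AGO2 in green; points are libraries labelled by replicate number, and bars are the mean and SD of 2 libraries. The groups are apart on the left (314 and 344 against 384 and 356) and overlap on the right (328 and 383 against 363 and 325).

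Vector-injected and sham-injected bulbs were compared to find miRNAs whose proportion in the libraries differed, and miR-669c-5p showed no change that passed the test. Its TMM-scaled level was 356 ± 38.5 CPM for Control (SD, n = 2) and 344 ± 26.8 CPM for GFP-AGO2 (SD, n = 2). The log2 fold change, GFP-AGO2 over Control, was -0.05 (SE 0.17, adjusted p = 0.866 by edgeR's quasi-likelihood test with Benjamini-Hochberg adjustment). Its 95% interval ran from -0.47 to 0.38, that is from 0.720-fold to 1.30-fold. The interval thus includes both no change and changes of either sign up to these bounds. It was the only one of the 70 members that passed edgeR's filter on low counts, set at a minimum of 10, so 1 member was tested and 0 were called at an adjusted p under 0.05. Its unadjusted p by edgeR was also above 0.05. Over all 457 miRNAs tested, 34.4% were called, 79 higher and 78 lower, with a median log2 fold change of -0.01. Of the 63 tested Dlk1-Dio3 miRNAs, 21 were called higher and 7 lower, with a median of 0.90. Only 22 of the 457 had a log2 fold change closer to 0 than miR-669c-5p. The sign of the difference depended on the scaling. It was 0.17 with total counts alone, where the median of all miRNAs was 0.20, and -0.10 with upper quartile scaling, where the median was -0.06. DESeq2 gave 0.03 (SE 0.28, adjusted p = 0.963 by DESeq2), where the median of the same 457 miRNAs was 0.06.

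**Figure D4:**
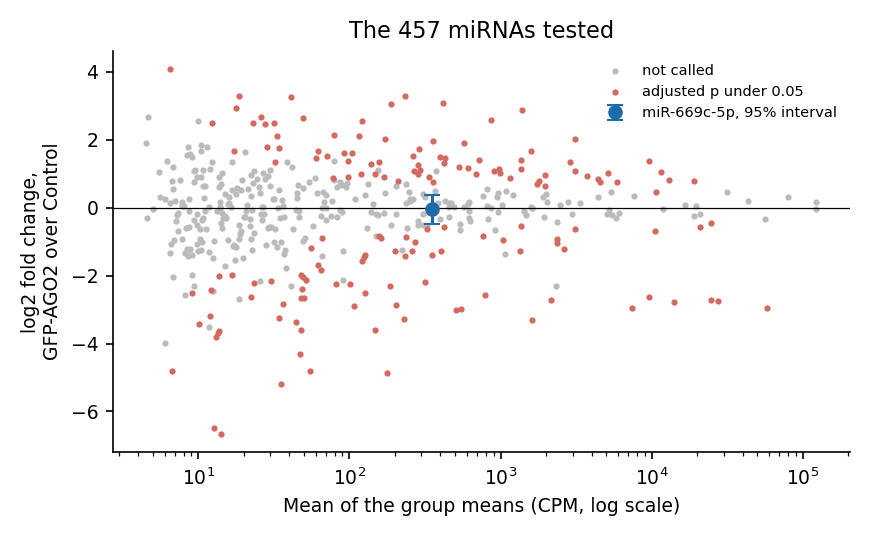
Log2 fold change of GFP-AGO2 over Control (y axis) against the mean of the group means in TMM-scaled CPM (x axis, log scale) for the 457 miRNAs tested, with the 157 called by edgeR in red and the others in grey. MiR-669c-5p (blue, with its 95% interval from -0.47 to 0.38) lies at -0.05, close to 0.

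The miRNAs whose pattern over the 4 libraries was most like that of miR-669c-5p were mostly of the let-7 family, the most abundant miRNA family of these libraries. Likeness was the root mean square difference of log2 CPM, each centred on its own mean over the 4 libraries, and was computed for 456 miRNAs, whose median was 0.55. It was 0.03 for let-7b-5p, 0.06 for miR-3068-5p, 0.06 for let-7g-5p, 0.06 for let-7k and 0.06 for let-7e-5p. Let-7b-5p had 116524 and 130604 CPM in Control and 129678 and 110443 CPM in GFP-AGO2, which is the same order of the 4 libraries as that of miR-669c-5p. With 4 libraries that share depth and scaling factors, this is a description of these libraries alone.

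The cluster's remaining 14 counted members had 1 to 24 counts each and 103 in all. Together they took 18.9 CPM in Control replicate 1, 22.3 in Control replicate 3, 15.7 in GFP-AGO2 replicate 1 and 13.5 in GFP-AGO2 replicate 3. The Control libraries lay above the GFP-AGO2 libraries, but the exact 95% intervals overlapped, running from 11.4 to 36.7 over the Control libraries and from 8.71 to 21.0 over the GFP-AGO2 libraries. These levels rest on 19 and 15 counts for Control and 44 and 25 for GFP-AGO2. Of the 14 members, 6 had counts in a single library, 4 in 2 libraries, 2 in 3 libraries and 2 in all 4.

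In the miR-467 family, 3 of 10 names had counts, all of them 5p arms. With values given for replicate 1 and then replicate 3, miR-467e-5p had 4 and 2 counts in Control, or 3.97 and 2.97 CPM. In GFP-AGO2 it had 11 and 7 counts, or 3.91 and 3.77 CPM, so the groups overlapped. MiR-467c-5p had 1 and 4 counts in Control and 5 and 6 in GFP-AGO2, or 0.993, 5.94, 1.78 and 3.23 CPM in that order, with both the lowest and the highest value in Control. MiR-467d-5p had 3 and 2 counts in Control and none in GFP-AGO2.

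In the miR-669 family, 6 of 29 names had counts, and apart from miR-669c-5p none had more than 10. MiR-669e-5p had 4 and 3 counts in Control and none in GFP-AGO2. MiR-669f-3p, from the neighbouring hairpin, had the opposite pattern, with none in Control and 5 in each GFP-AGO2 library. MiR-669m-5p had none in Control and 6 and 2 in GFP-AGO2. MiR-669d-5p, with 6 counts, was seen only in GFP-AGO2 replicate 1, and miR-669h-5p, with 5 counts, only in Control replicate 1. MiR-669m-5p and miR-669d-5p each have 2 positions, so the hairpin they came from is uncertain.

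In the miR-466 family, 4 of 25 names had counts, and in the miR-297 family 2 of 6. MiR-466d-3p had 0 and 3 counts in Control and 8 and 1 in GFP-AGO2. MiR-466c-5p, with 2 positions, had 0 and 1 in Control and 2 and 1 in GFP-AGO2. Single counts were found for miR-466a-3p and miR-466o-3p, both in Control replicate 1, and for miR-297c-5p in GFP-AGO2 replicate 1. MiR-297b-5p had 3 counts, all in GFP-AGO2 replicate 3. No name of either family had more than 12 counts in all.

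**Figure D5:**
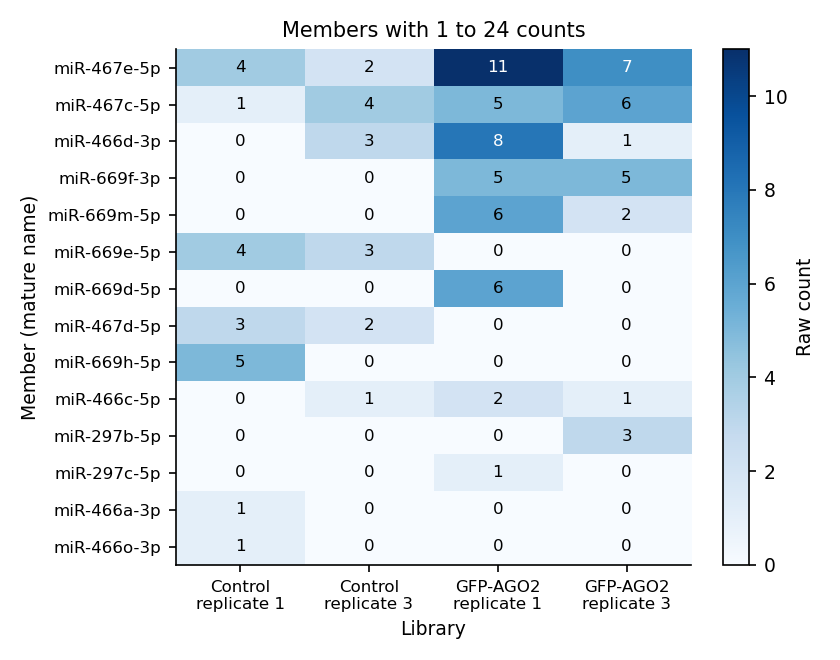
Raw counts (number and shade) of the 14 members with 1 to 24 counts (rows) in each of the 4 libraries (columns). MiR-467e-5p and miR-467c-5p are the 2 with a count in every library, miR-669e-5p and miR-467d-5p have counts in both Control libraries only, and miR-669f-3p and miR-669m-5p in both GFP-AGO2 libraries only.

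Among these 14 members, the groups did not overlap for 4, with GFP-AGO2 the higher group for 2 and the lower group for 2, which is 28.6% of them. Of the 585 names outside the cluster with 1 to 24 counts, 25.6% had groups that did not overlap, so the share among the members was near that background. Folds were formed with 3 counts over the group as the limit where a group had none, and with the other group's counts taken as exact. So formed, miR-669e-5p was 6.48-fold lower in GFP-AGO2, miR-467d-5p 4.63-fold lower and miR-669f-3p 1.20-fold higher. The counting error of the 7, 5 and 10 counts behind these folds is left out, so the true folds could be smaller. The spread between mice is not covered either, and PCR copies of 1 molecule count as separate reads. For miR-669m-5p the 1.71 CPM in GFP-AGO2 lay below the limit of 1.79 in Control, and no fold is given. When edgeR was run with no filter on low counts, none of the 15 counted members was called, against 18.3% of the 1106 names then tested. MiR-669e-5p was the 1 member with an unadjusted p under 0.05 in that fit (adjusted p = 0.128 by edgeR). DESeq2 gave an adjusted p for 3 of the 15, none of them called, and an unadjusted p under 0.05 for miR-669e-5p alone.

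The counted members came mostly from 5p arms. Of the 32 5p names of the cluster 11 had a count and of the 34 3p names 4, while the 4 names with no arm in the name had none. Outside the cluster, 464 of 754 5p names and 507 of 762 3p names had a count. The 5p arms held 333 of the 335 cluster counts of Control replicate 1, 244 of 247 in Control replicate 3, 1109 of 1122 in GFP-AGO2 replicate 1 and 681 of 687 in GFP-AGO2 replicate 3. Without miR-669c-5p this was 17 of 19, 12 of 15, 31 of 44 and 19 of 25 in the same order. Of the 32 hairpin names with both arms among the members, 15 had a count in either arm and none had a count in both, so no ratio of the arms could be formed. The hairpins counted on the 3p arm were miR-466a, miR-466d, miR-466o and miR-669f, 3 of them from the miR-466 family, whose only counted 5p arm was miR-466c-5p with 4 counts.

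As a whole the cluster took a small part of the miRNA counts of each library, and its order between the groups depended on the denominator. Its share of the miRNA counts was 0.0333% in Control replicate 1 (exact 95% interval 0.0298 to 0.0370) and 0.0367% in Control replicate 3 (0.0322 to 0.0415). In GFP-AGO2 it was 0.0399% in replicate 1 (0.0376 to 0.0423) and 0.0370% in replicate 3 (0.0343 to 0.0398). The groups had 0.0350% ± 0.00239 and 0.0385% ± 0.00210 (SD, n = 2 each), and the interval of Control replicate 3 overlapped those of both GFP-AGO2 libraries. The interval of Control replicate 1 overlapped that of GFP-AGO2 replicate 3 but lay below that of GFP-AGO2 replicate 1. With every name of the miR-183 cluster and the miR-200 family left out of the denominator the order turned, with 0.0437% and 0.0478% in Control and 0.0410% and 0.0390% in GFP-AGO2. For comparison, the share of the Dlk1-Dio3 cluster was 4.48% ± 0.269 in Control (SD, n = 2) and 5.97% ± 0.0198 for GFP-AGO2 (SD, n = 2). Members with several positions together had 0 and 1 counts in Control and 14 and 3 in GFP-AGO2, so the cluster's share rested almost wholly on names with 1 position.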

How the data were processed

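Values are raw counts of reads for each mature miRNA, deposited by the authors. Per the file headers, featureCounts 1.4.6-p1 counted only primary alignments, using a miRNA annotation of the mm10 build. The counting command has no strand option. The submitters' processing notes name cutadapt, STAR and mm10. Their versions and the limit on multiple matches were not stated in any label or header. Columns were tied to samples by title. Depth was 673916 to 2809758 counts per library.

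Changes were tested across all names with edgeR 4.0.16 in R 4.3.3 (quasi-likelihood F test, TMM factors, filterByExpr at a minimum count of 10, two-sided, Benjamini-Hochberg over 457 miRNAs, called at an adjusted p under 0.05), a procedure checked on counts drawn with known changes. Intervals of log2 fold changes are 95% intervals from the fit; those of shares are exact Clopper-Pearson intervals and cover counting error only. Shares and arms were described without a test. Alternatives were DESeq2 1.42.0, other scalings, filters and name sets, a replicate block and leaving out each library. Members that passed the filter were to be named, with the most counted of the others and the 5 miRNAs of most similar pattern. The other 13 counted members were named after their values were seen. The members and lists were chosen with earlier results of these data known. Libraries of a group were not copies of each other (chi-square 4564 on 383 degrees of freedom in Control and 47711 on 475 in GFP-AGO2). Positions were compared with GENCODE M21, which uses the same build.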

Additional observations from a re-analysis of the deposited data

How the results depend on the processing

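MiR-669c-5p was not called under any of the 13 alternatives, with log2 fold changes of -0.13 to 0.20 and adjusted p-values of 0.460 to 0.963 by edgeR or DESeq2. The value was above 0 under 5 of them: 0.028 with DESeq2, 0.17 with total counts alone, 0.20 with no filter, 0.030 without Control replicate 3 and 0.031 without GFP-AGO2 replicate 3. With no filter, the median over the 457 miRNAs of the main fit was 0.23. Values without 1 library ran from -0.13 to 0.031. With the replicate number as a replicate block it was -0.05 (adjusted p = 0.910). The labels do not say that the numbers pair the libraries, and the deviations of same-numbered libraries correlated at -0.06. The block changed the count of called miRNAs from 157 to 164. No member was called under any alternative; 15 were tested with no filter or by DESeq2 and 1 under the others. Over all miRNAs, 90 to 200 were called without 1 library. They were 90 without Control replicate 1 and 102 without Control replicate 3. In each such fit the lone library of a group is assumed to vary like the other group. The difference in the cluster's share, GFP-AGO2 minus Control, was 0.00349 percentage points, 0.00180 to 0.00518 without 1 library, and -0.00581 over a denominator free of miR-200 family and miR-183 cluster counts. The fit without those names was added after the data were seen and gave miR-669c-5p -0.03. No arm ratio could be formed with or without a minimum of 10 counts, since no hairpin had counts in both arms. Depth limits the 14 other counted members, none of which had over 24 counts.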
